A study of Bos taurus with 12 samples.

Results

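Solute carrier genes encode membrane transporters that move amino acids, sugars, ions, metals, vitamins and organic acids across the plasma membrane and the membranes of organelles. The deposited table of cytosines was searched for sites outside distal intergenic DNA whose host gene has a symbol that begins with SLC and a number. SLC39A11 and SLC24A2 were left out. This gave 170 genes with 1647 sites, of 8569 genes with a symbol and 92535 sites in gene features, in a table of 216990 sites. Of the 170 symbols 169 were also RefSeq symbols, the exception being SLC22A20P. SLC4A1AP is a member by its name only, since it encodes an adaptor protein. The membership rule used gene names and no measured value. The table itself held only sites that its authors had selected for a difference between the groups, so the size and direction of each group difference are descriptions.

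The DNA came from 1 mL of whole blood of each of 12 dairy cows of 1 herd, aged 3 to 8 years. The subfertile group consisted of 6 cows that were culled in the following year for reproductive complications not recognised at sampling. The fertile group consisted of 6 cows that stayed in the herd without fertility problems. Both groups shared the farm and its conditions, and the labels name no treatment. Each value is a percent methylated, for a single cytosine and cow, after enzymatic conversion, which reads methylated and hydroxymethylated cytosines alike, on the build ARS-UCD1.2. The read depth of each value is unknown. The column letters F and R belong to the cows labelled subfertile and fertile. The sources used here do not give their meaning, and if they were meant the other way, every direction below would turn.

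Differences are given as subfertile minus fertile in percentage points, and levels as mean ± SD over n = 6 cows per group unless stated. Whole blood holds many cell types, and a shift in their proportions cannot be told apart from a methylation change within a cell type. Sites were present in 14 of 35 marker genes of blood cells, of which 0 passed limma on gene means. No monocyte or erythroid marker had a site. Over the 123 sites of B cell markers, of which 102 were higher in subfertile cows, the cows ranged from 54.4 to 82.6% in the subfertile and from 27.0 to 55.0% in the fertile group. Over the 15 sites of 6 natural killer markers, of which 10 were lower, they ranged from 47.5 to 63.5% in the subfertile and from 59.5 to 75.9% in the fertile group. For both of these cell types the ranges of the groups overlapped. At 7 T cell marker sites the groups overlapped too, from 40.9 to 89.6% in subfertile and 35.6 to 86.5% in fertile cows. They also overlapped over the 2 neutrophil marker sites, from 23.1 to 90% in the subfertile and from 65.6 to 100% in the fertile group, and over the 2 platelet marker sites, from 0 to 58.0% in the subfertile and from 0 to 89.2% in the fertile group. The part of cell proportions in the results below was not tested. The cows lacked a value at 0.669 to 4.88% of the deposited sites.

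Solute carriers are grouped into numbered subfamilies by sequence. Cells of the blood depend on them: lymphocytes import amino acids and glucose through them when activated, and red cells exchange chloride, bicarbonate and urea through them. DNA methylation at a promoter often accompanies low transcription, whereas methylation within a gene body has no single relation to it. No expression was measured here.

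Introns held 1428 of the member sites (86.7%), promoters 143 (8.68%), exons 52 (3.16%) and 3′ untranslated regions 23 (1.4%), and 1 site lay downstream of a gene. A promoter here is the region within 3 kb of a transcription start, as annotated in the deposited table. Of the 143 promoter sites 34 (23.8%) lay within 1 kb of a start. In all, 224 sites (13.6%) lay in a first intron, against 21.0% of the other sites in gene features, and the promoter share of those other sites was 13.1%. The number of sites per gene was uneven. The median was 3 sites, 44 genes had 1 site, 102 had at least 3, and the 10 genes with the most sites held 710 (43.1%).

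Methylation was higher in subfertile cows at 889 member sites (54.0%) and lower at 758. The share of higher sites over all gene features was 50.6%. The median absolute difference was 34.3 points at member sites and 33.4 points at the other gene sites. At 51 member sites (3.1%) no subfertile cow overlapped a fertile cow, 34 of them higher and 17 lower in subfertile cows. The background over gene features was 2.93%, with 1.73% higher and 1.2% lower, so the members' share lay near that of the table. Limma, a linear model with moderated variance, called 0 member sites (adjusted p of at most 0.05), against 0% of all sites in gene features. At an unadjusted p under 0.05 limma gave 971 member sites (59%), against a background of 53.7%.

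Most member sites had a wide spread among cows. At 1197 sites (72.7%) the 12 cows included values both under 10% and over 80%. Such sites are called genotype-like in what follows, and they made up 69.7% of all sites in gene features. The median SD within a group was 27.9 points. The strands of the same CpG gave a measure of technical error. In 405 such pairs the strands of the same cow differed by a median of 5.39 points, with an SD of 13.6 points over 4707 cow values. Both strands had to pass the same selection, and in 0 of the 405 pairs did they point in opposite directions. Potassium, calcium and sodium channel genes, another set of membrane proteins, had 1566 sites, of which 49.9% were higher in subfertile cows and 2.17% separated the groups. Their sites lay in a first intron in 34% and in a promoter in 3.51% of cases. These shares were set side by side without a test, because neighbouring sites are not independent.

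Averaged per gene, 0 of the 161 members with a value in all 12 cows passed limma (adjusted p of at most 0.05), against a background of 0.121% of 9909 genes (0.0807% higher and 0.0404% lower). The other 9 members lacked a value in at least 1 cow and were not tested. The smallest adjusted p by limma was 0.0553. At an unadjusted p under 0.05 limma gave 58 members (36%), 36 higher and 22 lower in subfertile cows, and the background was 40.6%. The gene mean was higher in subfertile cows in 87 tested members (54%) and lower in 74, while 51.9% of all tested genes were higher. The median difference was 2.19 points in the members and 1.84 points in all tested genes. A fit on genes with at least 3 sites, which makes fewer tests, brought 4 of 102 members (3.92%) to an adjusted p of at most 0.05 by limma, against 3.42% of 5580 genes. These were SLC7A1, SLC37A1, SLC25A24 and SLC45A4.

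In 6 of the 161 tested members (3.73%) the gene means of the groups did not overlap, against a background of 3.38%. Of these, 5 were higher in subfertile cows: SLC7A1, the sodium-hydrogen exchanger gene SLC9A2, the intestinal chloride and bicarbonate exchanger gene SLC26A3, the copper importer gene SLC31A1 and SLC27A2, which encodes a very long chain acyl-CoA synthetase. The other, SLC25A24, encodes a mitochondrial carrier of ATP-magnesium and phosphate and was lower. SLC9A2, SLC26A3, SLC31A1, SLC27A2, SLC25A24 and SLC45A4, and SLC44A1 and SLC44A2 below, fall outside the rule for named genes and are named because their values were seen. SLC27A2 rested on 1 site (91 ± 6.45% in subfertile and 58.8 ± 11.3% in fertile cows). SLC26A3 rested on 2 sites (94.5 ± 3.68% in subfertile and 71.4 ± 11.7% in fertile cows), as did SLC31A1 (73.5 ± 26.2% in subfertile and 28.8 ± 22.5% in fertile cows). The gap was narrow in SLC31A1, with the lowest subfertile cow at 47.6% and the highest fertile cow at 47.5%. In SLC9A2 these cows lay at 88.0 and 87.2%.

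Subfamilies with at least 3 member genes were ranked by the mean over their genes, each gene weighing the same, without a test. Of these 22 subfamilies 15 had a higher mean in subfertile cows. The choline transporter-like subfamily SLC44 ranked first (70.01 ± 9.52% in subfertile and 44.6 ± 13.3% in fertile cows). All 4 of its genes and 15 of its 17 sites were higher in subfertile cows, with SLC44A2 at 83.6 ± 10.5% in subfertile and 50.5 ± 23.6% in fertile cows over 6 sites. SLC44A1, with 7 sites the most of these genes, had a smaller difference (69.4 ± 19.6% in subfertile and 58.5 ± 16.8% in fertile cows). SLC44 was followed by the anion exchangers SLC26 (15.8 points), the glutamate and neutral amino acid transporters SLC1 (13.7 points) and the bicarbonate transporters SLC4 (12.5 points). At the other end stood SLC19, which carries folate and thiamine (38.2 ± 7.88% in subfertile and 66.2 ± 25% in fertile cows). Next to it lay SLC66 (-21.5 points), the carboxylate transporters SLC13 (-16.3 points) and the mitochondrial carriers SLC25 (-13.3 points). SLC66 rested on 4 sites in 3 genes, SLC13 on 31 sites and SLC25 on 65.

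The order of subfamilies depended on how genes were weighed and assigned. With each site weighing the same, SLC5, SLC8, SLC22, SLC35 and SLC38 changed sign. SLC24 had 35.8 points instead of 3.42 points, because SLC24A4 held 122 of its 125 sites. SLC22 had -19.2 points instead of 3.95 points. SLC44 had 23.6 points under that weighting. With the nearest gene in place of the host gene, SLC26 had -1.82 points, SLC66 had 3.27 points, SLC24 had -7.15 points and SLC35 had -6.38 points. The signs of SLC5, SLC12 and SLC24 depended on single cows. Without genotype-like sites SLC4 had 3.35 points and SLC25 had -4.56 points.

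**Figure D1:**
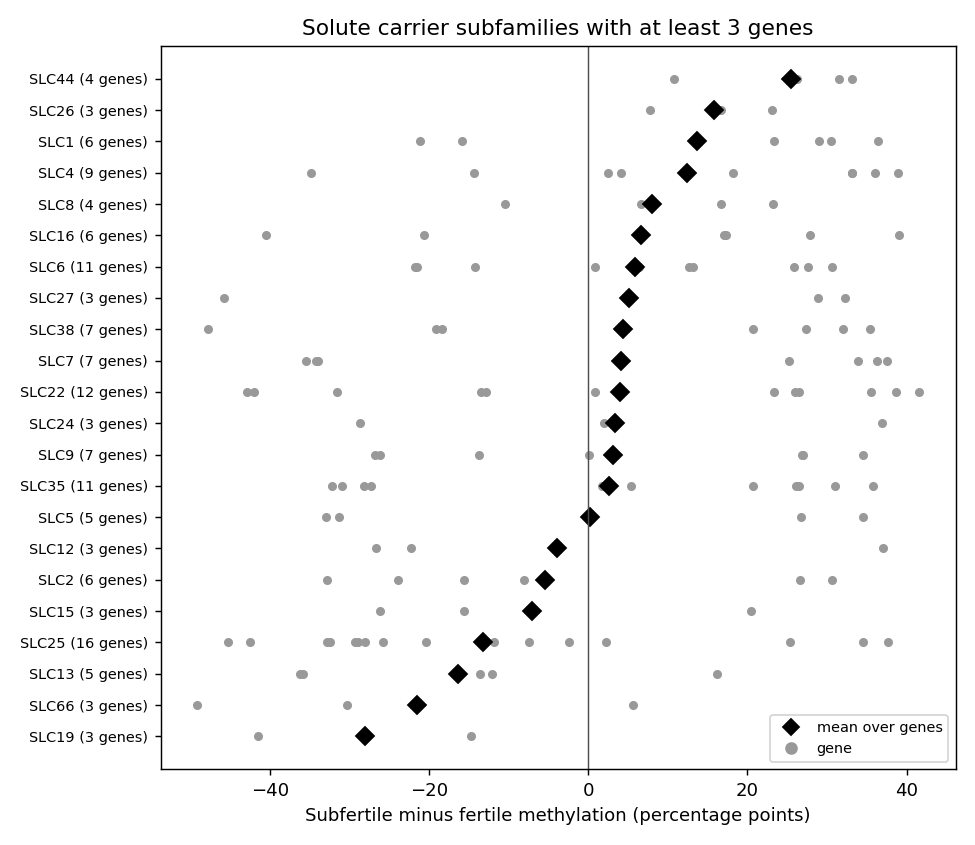
Difference in methylation between subfertile and fertile cows (x axis, percentage points) for 22 solute carrier subfamilies (y axis); grey points are genes and black diamonds are the means over a subfamily's genes. SLC44 lies farthest to the right at 25.4 points and SLC19 farthest to the left at -28.1 points.

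Substrate classes were assigned by subfamily number and so hold some genes with other substrates. SLC6A2 and SLC6A4, which carry noradrenaline and serotonin, count with the amino acid carriers, the choline carrier gene SLC5A7 with the sugar carriers and SLC4A1AP with the inorganic ion transporters. Every class listed held genes of both directions. Among the 34 genes of amino acid carrier subfamilies 21 had a higher and 13 a lower mean in subfertile cows. Subfamilies of inorganic ion transporters had 21 higher and 10 lower of 31 genes. Carriers of organic ions and drugs had 8 higher and 5 lower, nucleoside and nucleotide sugar carriers 10 and 4, and lipid and bile acid carriers 7 and 2. Mitochondrial carriers leaned the other way, with 4 genes higher and 12 lower of 16. Metal carriers had 1 gene higher and 5 lower, peptide and urea carriers 1 and 4, and sugar carriers 6 and 7. Carboxylate carriers were at 5 and 6, vitamin carriers at 3 and 3, and vesicular carriers at 3 and 1. None of these genes passed limma on gene means, so the counts describe means only.

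Of the amino acid carriers, SLC7A1 had the most sites. It encodes CAT1, a carrier of arginine and lysine, and lies on chromosome 12 from 30934105 to 30991889. Its 40 sites, 4 in the promoter and 36 in introns, were higher in subfertile cows in 38 cases, and 4 were genotype-like. The lowest, median and highest gene means were 47.5, 88.3 and 89.2% in subfertile cows, against 42.1, 44.7 and 46.3% in fertile cows. Thus 5 subfertile cows lay within 87.9 to 89.2%, and subfertile cow 6 lay just above the fertile cows. The groups did not overlap (81.7 ± 16.8% in subfertile and 44.2 ± 1.73% in fertile cows; limma adjusted p = 0.0553). Without subfertile cow 6 the adjusted p by limma was 0.00674, and the difference was 44.3 points instead of 37.5 points. In the other 11 fits that left out 1 cow the adjusted p by limma was 0.0546 to 0.0731.

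The other amino acid carriers that were named showed wider spreads and both directions. SLC7A5 encodes LAT1, which carries large neutral amino acids such as leucine, and was lower in subfertile cows at 18 of 19 sites. Its lowest, median and highest gene means were 7.31, 48.6 and 92.6% in subfertile cows, against 46.5, 91.2 and 94% in fertile cows. The groups overlapped (49 ± 27.1% in subfertile and 84.5 ± 18.6% in fertile cows; limma adjusted p = 0.0867). Fertile cow 3 lay at 46.5%, while the other 5 fertile cows lay within 90.7 to 94.0%. Subfertile cow 4, at 92.6%, lay within the range of those 5. SLC7A9, which encodes a subunit of the cystine transporter of kidney and gut, was lower at all 11 sites (34.1 ± 25.5% in subfertile and 68.3 ± 23.5% in fertile cows; limma adjusted p = 0.101). SLC7A6, a carrier of cationic and neutral amino acids, was higher at all 5 sites (51.4 ± 27.5% in subfertile and 17.5 ± 20.5% in fertile cows; limma adjusted p = 0.0893).

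Among inorganic ion transporters, SLC9A9 held 223 sites, the most of any member, all in introns on chromosome 1 between 125047226 and 125704656. It encodes NHE9, a sodium-hydrogen exchanger of endosomes. Its gene mean differed by less than the spread among cows (46.9 ± 2.14% in subfertile and 46.9 ± 5.38% in fertile cows; limma adjusted p = 0.992), with 114 higher and 109 lower sites. The directions were arranged in runs. Neighbouring sites of 1 direction no more than 10 kb apart formed 11 runs of at least 5 sites in SLC9A9, which held 157 of its sites. Runs were defined after the values were seen.

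Along SLC9A9 the runs changed direction several times. In intron 4, 26 sites over 31871 bases were lower in subfertile cows, with a lowest, median and highest cow at 0, 3.78 and 13.6% in subfertile cows, against 7.17, 48.6 and 58.5% in fertile cows. Further on, in intron 6, 18 sites over 3044 bases were higher, with 50.8, 70.9 and 93.6% in subfertile cows, against 0, 21.6 and 48.6% in fertile cows. That run was 1 of 4 member runs whose groups did not overlap. In intron 14 a run of 23 sites was lower (24.6 ± 28.1% in subfertile and 63.7 ± 21.8% in fertile cows), and the next run, of 12 sites, was higher (61.9 ± 33.8% in subfertile and 19.6 ± 22% in fertile cows). The gene average therefore combined local differences of both signs.

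**Figure D2:**
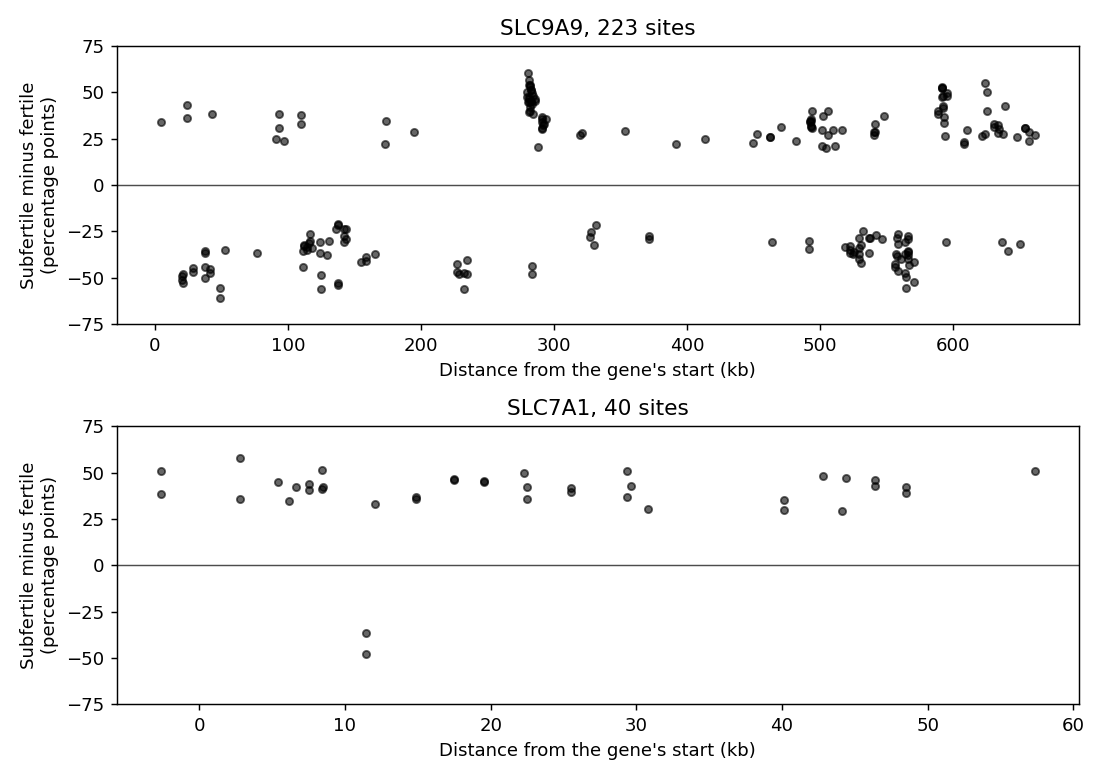
Difference between subfertile and fertile cows (y axis, percentage points) at each deposited site of SLC9A9 (223 sites) and SLC7A1 (40 sites) by distance from the gene's start in kb (x axis). Each point is 1 site, with SLC9A9 in the upper and SLC7A1 in the lower panel. Sites of SLC9A9 fall into runs above and below 0, whereas 38 of the 40 sites of SLC7A1 lie above 0; no point lies near 0 because sites were deposited only past a threshold.

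Other genes of the sodium-hydrogen exchanger subfamily showed both directions. SLC9B2, which encodes the sodium-hydrogen antiporter NHA2, was lower in subfertile cows at 23 of 27 sites (36.7 ± 15.2% in subfertile and 62.9 ± 11% in fertile cows; limma adjusted p = 0.0799). SLC9A4, a sodium-hydrogen exchanger of the stomach in rodents, was lower at 12 of 16 sites (40.6 ± 13.2% in subfertile and 54.3 ± 15.5% in fertile cows; limma adjusted p = 0.23), and its neighbour on chromosome 11, SLC9A2, was higher at all 7 (91.3 ± 3.20% in subfertile and 64.3 ± 31.7% in fertile cows; limma adjusted p = 0.101). With the nearest gene instead of the host gene the difference of SLC9A4 was 33.5 points instead of -13.7 points.

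SLC24A4 encodes a potassium-dependent sodium-calcium exchanger known for its role in tooth enamel, and held 122 sites on chromosome 21, of which 106 were higher in subfertile cows. The lowest, median and highest gene means were 54.3, 79.4 and 90.4% in subfertile cows, against 13.2, 37.9 and 73.8% in fertile cows. The groups overlapped (76.8 ± 13.2% in subfertile and 39.9 ± 24.4% in fertile cows; limma adjusted p = 0.0724). The higher sites formed runs of 27 and 72 sites from intron 2 to intron 15 (81.6 ± 14.3% in subfertile and 33.5 ± 28.4% in fertile cows in the longer run). Upstream of them in intron 2, runs of 6 and 5 sites were lower (52 ± 19.97% in subfertile and 85.5 ± 16.9% in fertile cows in the run of 6). Of the 122 sites 108 were genotype-like, and without those the difference of SLC24A4 was -25.7 points (limma adjusted p = 0.0372). In that fit 42.3% of 5697 genes passed, and the filter that defines it uses the same cow values.

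SLC20A2 encodes the phosphate importer PiT-2 and was higher in subfertile cows at 47 of 60 sites on chromosome 27. Its lowest, median and highest gene means were 83.1, 84.9 and 87.5% in subfertile cows, against 50.7, 55.6 and 93.8% in fertile cows. The subfertile cows were close together, whereas fertile cows 2 and 6 lay at 86.7 and 93.8% and the other 4 within 50.7 to 56.1% (85.1 ± 1.79% in subfertile and 65.7 ± 19.3% in fertile cows; limma adjusted p = 0.142). SLC4A7, a sodium bicarbonate cotransporter, was higher at all 36 sites, of which 35 were genotype-like. Its gene means were 2.98, 56.9 and 97.1% in subfertile cows, against 3.19, 9.13 and 51% in fertile cows in the same order. The groups overlapped (54.8 ± 38.1% in subfertile and 15.9 ± 17.7% in fertile cows; limma adjusted p = 0.11).

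**Figure D3:**
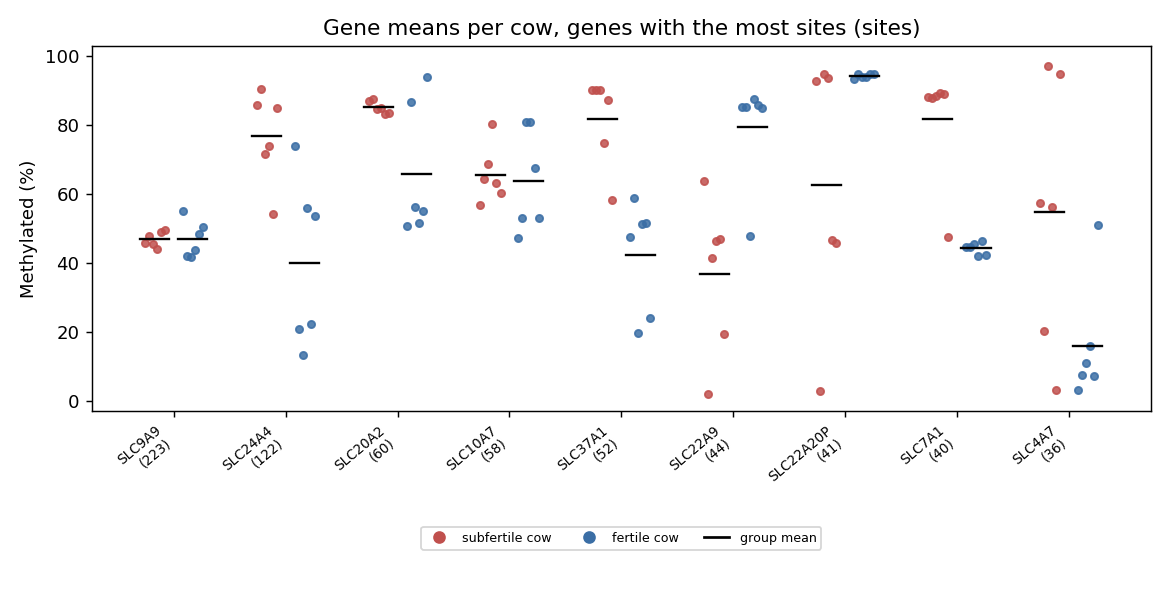
Gene means per cow (y axis, percent methylated) for 9 of the 10 member genes with the most sites (x axis, number of sites in parentheses); points are cows, red for subfertile and blue for fertile, and black lines are group means. In SLC7A1 all but 1 subfertile cow lie at 87.9% or more, while the cows of both groups lie between 41.7 and 55.1% in SLC9A9.

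SLC37A1 encodes a phosphate-linked glucose-6-phosphate antiporter of the endoplasmic reticulum. It was higher in subfertile cows at 46 of 52 sites on chromosome 1, with a lowest, median and highest gene mean of 58.2, 88.7 and 90.3% in subfertile cows, against 19.6, 49.4 and 58.9% in fertile cows. Subfertile cow 6 and fertile cow 2 met, at 58.2 and 58.9%, and the other cows of the groups lay apart (81.8 ± 13% in subfertile and 42.1 ± 16.2% in fertile cows; limma adjusted p = 0.0553). Neighbouring runs of 23 and 16 sites were both higher, with 83.6 ± 16.6% in subfertile and 32.7 ± 21.8% in fertile cows in the first and 85 ± 14.7% in subfertile and 35.6 ± 19.9% in fertile cows in the second. The member site with the most positive difference lay in intron 7 of SLC37A1, at position 142846870 (90.01 ± 18% in subfertile and 24.2 ± 24.5% in fertile cows). The most negative one lay in intron 5 of SLC22A9 at position 41678434 (24.7 ± 22.3% in subfertile and 94.7 ± 5.35% in fertile cows, n = 5 fertile cows). The choice of both sites followed a look at the values.

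The SLC22 subfamily, transporters of organic anions and cations, held 12 member genes with 140 sites, and SLC22A10, SLC22A9, SLC22A11, SLC22A12 and SLC22A20P followed each other on chromosome 29. Roles are those of the human proteins. SLC22A9, an organic anion transporter of liver between 41664021 and 41689067, was lower in subfertile cows at 43 of 44 sites. Its lowest, median and highest gene means were 1.99, 43.9 and 63.8% in subfertile cows, against 47.7, 85.3 and 87.7% in fertile cows. Fertile cow 3 at 47.7% was the only fertile cow within the range of the subfertile cows (36.6 ± 22.2% in subfertile and 79.5 ± 15.6% in fertile cows; limma adjusted p = 0.0645). SLC22A10, between 41581967 and 41608502, was higher at all 12 sites, with 22.4, 46 and 90.5% in subfertile cows, against 0, 0 and 49.8% in fertile cows (52.8 ± 25% in subfertile and 11.2 ± 20.1% in fertile cows; limma adjusted p = 0.0643).

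A high value in SLC22A10 stood beside a low value in SLC22A9 in subfertile cow 2 (90.5 and 1.99%) and subfertile cow 6 (73.9 and 19.4%). The reverse held in the 4 fertile cows at 0 in SLC22A10, which had 84.9 to 87.7% in SLC22A9. Subfertile cows 3, 4 and 5 and fertile cow 3 lay between 38.0 and 49.8% in both genes. SLC22A11, an organic anion transporter of kidney and placenta, was lower in subfertile cows at all 10 sites (34.9 ± 31.7% in subfertile and 76.9 ± 20.7% in fertile cows; limma adjusted p = 0.0851). SLC22A12, the kidney urate transporter URAT1, was higher at all 12 sites, which lay in its promoter (58 ± 36.4% in subfertile and 19.3 ± 21.7% in fertile cows; limma adjusted p = 0.119). Subfertile cow 4 had 0% in SLC22A12 and 84.1% in SLC22A11, and subfertile cow 2 had 93.9% in SLC22A12 and 0% in SLC22A11. SLC22A20P, a pseudogene by its deposited name, was lower at 40 of 41 sites (62.8 ± 37.5% in subfertile and 94.3 ± 0.554% in fertile cows; limma adjusted p = 0.121). All 6 fertile cows lay between 93.4 and 94.8% in SLC22A20P. Subfertile cows 1, 3 and 4 lay at or near that level, at 92.9, 94.7 and 93.8%, and subfertile cows 2, 5 and 6 at 2.68, 46.7 and 45.8%. Without subfertile cow 2 the difference of SLC22A20P was -19.5 points, and without genotype-like sites it was -3.29 points. The latter value rests on few sites, since 39 of the 41 were genotype-like. Members of this subfamily resemble each other in sequence, and the sources used here do not say how reads were placed among copies.

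**Figure D4:**
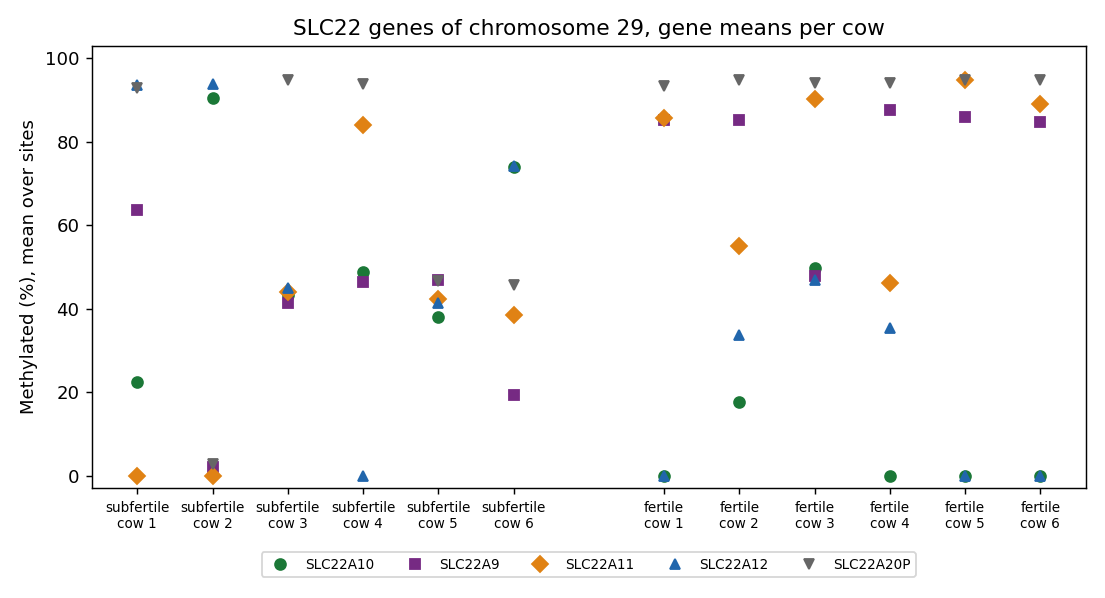
Mean methylation (y axis, percent) of 5 SLC22 genes of chromosome 29 in each cow (x axis), with 6 subfertile cows on the left and 6 fertile cows on the right; symbols and colours mark the genes. SLC22A10 and SLC22A9 stand at opposite levels in most fertile cows, and SLC22A20P lies between 93.4 and 94.8% in all fertile cows but at 2.68% in subfertile cow 2.

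Mitochondrial carriers move metabolites across the inner mitochondrial membrane, and 54 of their 65 sites were lower in subfertile cows. Over the 16 genes the mean was 61 ± 8.48% in subfertile and 74.3 ± 4.99% in fertile cows, without a test. SLC25A48, a mitochondrial carrier, was lower at 21 of 22 sites on chromosome 7. None was genotype-like, but that label needs a cow over 80%, and 2.3% of its values lay there. Its lowest, median and highest gene means were 3.79, 4.55 and 41.1% in subfertile cows, against 4.76, 44.8 and 53% in fertile cows. In each group 5 cows lay together, within 3.79 to 4.76% among subfertile and 39.0 to 53.0% among fertile cows. Subfertile cow 2 at 41.1% and fertile cow 6 at 4.76% lay at the level of the opposite group (10.5 ± 15% in subfertile and 39.4 ± 18% in fertile cows; limma adjusted p = 0.079). SLC25A24 was lower at all 15 sites, with 42.7, 66.2 and 82.8% in subfertile cows, against 89.9, 94.5 and 96.5% in fertile cows. The groups did not overlap (64.8 ± 19% in subfertile and 94.1 ± 2.24% in fertile cows; limma adjusted p = 0.0553).

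Vitamin and metal carriers were few. SLC19A2, the thiamine importer THTR1, was lower in subfertile cows at all 12 sites, but its cows were scattered, with 0, 24.3 and 96.9% in subfertile cows, against 53.7, 93.8 and 96.6% in fertile cows. The groups overlapped (40.2 ± 47.4% in subfertile and 81.7 ± 20.9% in fertile cows; limma adjusted p = 0.128). SLC39A8 encodes ZIP8, an importer of zinc and manganese, and was lower at 6 of 8 sites (40.4 ± 18.5% in subfertile and 70.7 ± 17.8% in fertile cows; limma adjusted p = 0.0822). Over its 2 sites that were not genotype-like the difference of SLC39A8 was 29.9 points (limma adjusted p = 0.0187), the opposite direction. This is the fit in which 42.3% of all genes passed.

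Carriers of carboxylates showed both directions. SLC16A5, of the monocarboxylate transporter family, was higher in subfertile cows at all 12 sites, with 0, 49.1 and 89.9% in subfertile cows, against 0, 0.219 and 75.6% in fertile cows. Fertile cow 2 had 75.6% and the other 5 fertile cows at most 0.463% (51.7 ± 32.4% in subfertile and 12.7 ± 30.8% in fertile cows; limma adjusted p = 0.0955). SLC16A14, of the same family, was lower at all 5 sites (23.6 ± 26.4% in subfertile and 64.1 ± 28.6% in fertile cows; limma adjusted p = 0.0838). SLC13A3, a dicarboxylate transporter of kidney, was lower at 10 of 15 sites (50.9 ± 9.04% in subfertile and 63 ± 2.17% in fertile cows; limma adjusted p = 0.159).

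The remaining named members had small differences in gene mean. SLC10A7, which affects calcium handling and bone formation, had 29 of 58 sites higher and 29 lower (65.6 ± 8.32% in subfertile and 63.7 ± 14.9% in fertile cows). Its 3 runs of at least 5 sites differed by 30.1, -27.8 and 35.1 points, so its gene mean combined both signs. SLC2A13, the proton myo-inositol symporter, was lower at 22 of 33 sites (59 ± 15% in subfertile and 67.1 ± 4.37% in fertile cows). Without subfertile cow 6 the difference of SLC2A13 was -3.23 points. SLC14A1, the urea transporter of red cells, was lower at 15 of 27 sites (54.8 ± 8.30% in subfertile and 58.2 ± 9.71% in fertile cows). SLC35F3, of the nucleotide sugar transporter family, was higher at 13 of 22 sites (56.1 ± 7.63% in subfertile and 50.7 ± 4.75% in fertile cows). SLC18B1, a vesicular polyamine carrier, was higher at 2 of 4 sites (68.4 ± 15.5% in subfertile and 64.1 ± 12.2% in fertile cows). In these 5 genes the smallest adjusted p by limma was 0.403 over all sites. Without genotype-like sites SLC14A1 had -29.0 points (limma adjusted p = 0.0169) and SLC35F3 had 31.0 points (limma adjusted p = 0.0154). SLC10A7 had -20.8 points there (limma adjusted p = 0.119), and 42.3% of all genes passed in that fit.

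Over all members, 75 runs of at least 5 sites lay in 50 genes and held 959 member sites (58.2%), against 49.5% of the sites of all genes, with 36 runs higher and 39 lower in subfertile cows. Among the 900 cow means over these runs, 21% lay under 15%, 34% from 35 to 65% and 34.1% over 80%. Of members with at least 3 sites, 35 of 102 (34.3%) had all sites in 1 direction, against 35.3% of the 5586 such genes in the table. The groups did not overlap in 4 of the 75 runs (5.33%), against a background of 7.07% of 4386 runs in all genes. These 4 runs lay in SLC7A1 (2 runs), SLC37A1 and SLC9A9. Members also lay close to each other: 34 of them shared a locus with another member within 500 kb, in 15 loci, and such genes need not be separate results.

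Promoters were compared to ask which transporters differed over several promoter sites together. Of the 67 members with a promoter site, 14 had at least 3 and were tested. Limma called 2 of the 14 (14.3%) at an adjusted p of at most 0.05, SLC7A1 higher and SLC22A9 lower in subfertile cows, against a background of 15.7% of 1292 genes, with 7.51% higher and 8.2% lower. At an unadjusted p under 0.05 limma gave 8 of the 14 (57.1%), against 51.9%. The members were therefore called about as often as the promoters of other genes. Promoter means did not overlap between the groups in 1 member, SLC7A1, against a background of 3.64%.

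The promoter of SLC7A1 rose in subfertile cows, with a lowest, median and highest mean of 53.3, 94.9 and 98.4% in subfertile cows, against 36.8, 41.3 and 51.1% in fertile cows. Every subfertile cow lay above every fertile cow over the 4 sites, between positions 30931447 and 30936886 of chromosome 12 (88.5 ± 17.5% in subfertile and 42.7 ± 4.93% in fertile cows; limma adjusted p = 0.0284). The 4 sites were pairs of adjacent positions, at -2.658 and -2.657 kb and at 2.78 and 2.781 kb from the start. The positions of a pair are not separate places, and no pair lay within 1 kb of the start. No site of these pairs was genotype-like, but that label needs a cow under 10%, and the lowest promoter mean of any cow was 36.8%. The missing label therefore says little about a step between intermediate and high levels. The call was lost without fertile cow 4 (limma adjusted p = 0.0541) and when genes with 1 promoter site were also tested (limma adjusted p = 0.0795). The run of 26 sites in introns of SLC7A1 had a like level, with 82.5 ± 17.3% in subfertile and 41.8 ± 1.87% in fertile cows.

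The promoter of SLC22A9 fell in subfertile cows, with a lowest, median and highest mean of 0, 36.9 and 80.6% in subfertile cows, against 51, 94.7 and 97.4% in fertile cows. The groups overlapped over its 4 sites, between 41662452 and 41665759 of chromosome 29, and all 4 were genotype-like (38.4 ± 25.8% in subfertile and 87 ± 17.9% in fertile cows; limma adjusted p = 0.0386). The call was lost in 6 of 12 fits that left out 1 cow, namely fertile cow 1, 2, 4 or 5 or subfertile cow 3 or 6, with an adjusted p by limma of up to 0.0573. It was also lost with 1 instead of 5 points added before the log ratio (limma adjusted p = 0.051) and when genes with 1 promoter site were tested too (limma adjusted p = 0.0795).

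Of the other tested promoters none passed. SLC7A6 had 58 ± 24.8% in subfertile and 22.7 ± 19.7% in fertile cows; limma adjusted p = 0.0586, over 3 sites. SLC22A12 had an adjusted p by limma of 0.0896. SLC9A4 had 74.9 ± 18% in subfertile and 39.4 ± 36.5% in fertile cows; limma adjusted p = 0.0941, over 4 sites, the direction opposite to that of its gene mean. SLC7A9 had 41.3 ± 31% in subfertile and 76.3 ± 20.8% in fertile cows over 6 sites, and SLC22A20P 61.1 ± 33.6% in subfertile and 89.8 ± 1.31% in fertile cows over 11. Without subfertile cow 2 the promoter difference of SLC22A20P was -18.3 points. SLC20A2 had 57 ± 19.8% in subfertile and 61.6 ± 15% in fertile cows over 4 sites, while its gene mean was higher in subfertile cows.

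**Figure D5:**
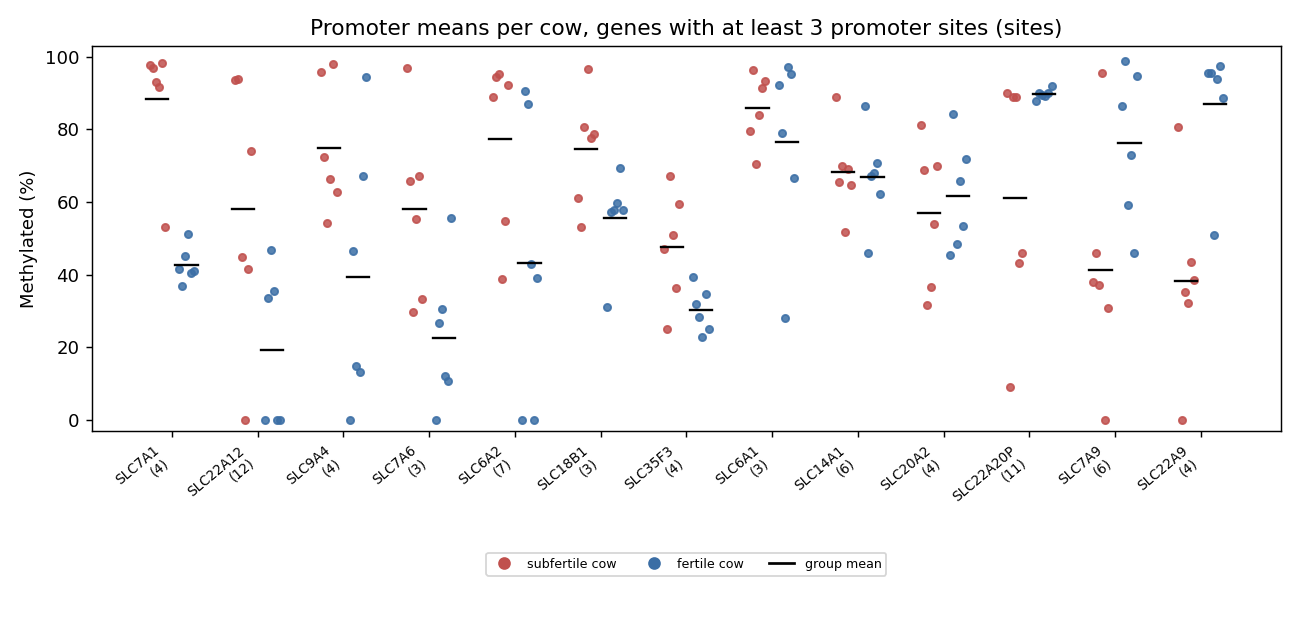
Promoter means per cow (y axis, percent methylated) for 13 of the 14 member genes with at least 3 promoter sites (x axis, number of sites in parentheses), ordered by the difference; points are cows, red for subfertile and blue for fertile, and black lines are group means. In SLC7A1 every subfertile cow lies above every fertile cow, and in SLC22A9 fertile cow 3 lies at 51.0%, within the range of the subfertile cows.

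At 7 of the 143 promoter sites (4.9%), in 5 genes, the groups did not overlap, against a background of 3.48% of promoter sites. The site given for each gene is 1 of these. In SLC22A9, position 41665759 had 17.1 ± 13.9% in subfertile and 85.7 ± 17.3% in fertile cows. In SLC7A1, position 30936885 had 89.1 ± 17.8% in subfertile and 31.2 ± 8.45% in fertile cows. SLC22A10 had 72 ± 17.5% in subfertile and 15.4 ± 23.9% in fertile cows at position 41579181. SLC22A20P had 47.3 ± 31.7% in subfertile and 89.1 ± 6.15% in fertile cows at position 43431684. SLC9B2 had 54.8 ± 11.3% in subfertile and 85 ± 6.92% in fertile cows at position 21792715 of chromosome 6. The sites of SLC7A1 and SLC9B2 were not genotype-like, whereas those of the SLC22 genes were. That label needs a cow under 10%, and the lowest cow lay at 16.7% at the SLC7A1 site and at 38.9% at the SLC9B2 site.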

How the data were processed

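Cytosine methylation was measured in blood DNA of 12 cows, 6 subfertile and 6 fertile. Per the submitters' processing notes, fastp 0.23.1, Bismark, DRAGEN and ChIPseeker 1.32.1 were used with the build ARS-UCD1.2. The authors deposited 1 table with the percent methylated per site and cow, without read counts, so depth is unknown and no counting interval could be given. The deposited difference between groups is a score in percentage points. All 216990 sites had a deposited absolute difference over 25 points and a deposited q-value under 0.01. The sources used here do not state the test behind these values or the read minimum. Because sites were selected on the same contrast, p-values describe only the spread among these cows, and a p from this table is not evidence of a difference in herds at large.

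Introns and exons were assigned to the gene that the annotation names as host, and other sites to the nearest gene. Site values were averaged per gene and cow, or per promoter with at least 3 sites. Limma 3.58.1 (R 4.3.3) was run on log2((percent + 5)/(105 − percent)) over all genes, with Benjamini-Hochberg adjustment and a threshold of 0.05. The fit was tested on simulated data, made from the gene values with group differences removed, cows shuffled and known shifts added. That simulation left out the selection of sites on the contrast, so it cannot show how selection affects the p-values. Pairs of cows had 0.787 to 1.67% identical values at the sites compared, so no cow was counted as a copy of another.

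Named genes were the 10 with the most sites, the 5 largest positive and 5 largest negative differences among genes with at least 3 sites, every gene passing limma, the 5 largest promoter differences in each direction, 1 non-overlapping promoter site for each of 5 genes, and the gene with the most sites per substrate class. Only 4 tested promoters had a negative difference. Members and lists were chosen with earlier results of these data known. The alternatives were the points added, plain percent, the nearest gene, leaving out genotype-like sites, 1 kb clusters, complete sites, differences of at least 40 points, other site minimums, the median over sites and leaving out each cow. The values of 1 named member are not reported here, although it is counted among the members.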

Additional observations from a re-analysis of the deposited data

Results flagged for a closer look

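Within a group of 6 cows, 12 of 70 groups tested held a cow far from the other 5 by Dixon's test. The test flags about 1 in 20 groups by chance when values are normally distributed. The cow means here are percentages with fixed bounds, so that rate need not apply to them. Neighbouring genes are not independent, and SLC22A12 entered with the same values as a gene and as a promoter. Among gene means, subfertile cow 6 lay at 47.5% in SLC7A1, while the other subfertile cows lay within 87.9 to 89.2%. In SLC25A48 subfertile cow 2 lay at 41.1% and fertile cow 6 at 4.76%. Subfertile cow 1 lay at 71.3% in SLC14A1.

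Fertile cow 3 also stood apart at 49.8% in SLC22A10, 47.7% in SLC22A9 and 46.5% in SLC7A5. Fertile cow 2 lay at 75.6% in SLC16A5, with the other fertile cows at no more than 0.463%. Fertile cow 6 lay at 51.0% in SLC4A7 and at 57.0% in SLC7A6. Among promoter means, subfertile cow 6 lay at 53.3% in SLC7A1 and fertile cow 3 at 51.0% in SLC22A9. The causes of these values were not tested.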

How the results depend on the processing

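No paired analysis was possible because the labels give no replicate numbers that pair subfertile with fertile cows. The number of gene means called was 0, but 4 with at least 3 sites per gene, 28 of 65 at sites with differences of at least 40 points (43.7% of all genes in that fit) and 32 of 84 without genotype-like sites (42.3% of all genes). Leaving out 1 cow gave 0 to 1, with SLC45A4 called without fertile cow 2 (0.2% of all genes) and SLC7A1 without subfertile cow 6 (0.111% of all genes). The number of promoters called was 2 of 14, but 1 with 1 point added (1.47% of all promoters), 0 of 56 with genes of 1 promoter site included (0.0908%), 1 of 2 at differences of at least 40 points (61.7%) and 4 of 14 on plain percent (24.7%). With 1 cow left out the number was 0 to 3. It was 0 without fertile cow 4 (0.31% of all promoters), and 3 without fertile cow 3 (10.9%) or without subfertile cow 4 (9.06%). The 51 sites without overlap (3.1%) became 22 of 450 without genotype-like sites (4.89%, against 5.23% of all sites in gene features), 21 of 832 in 1 kb clusters (2.52%, against 2.97%), 32 of 499 at differences of at least 40 points (6.41%, against 6.3%) and 68 to 118 when 1 cow was left out, which by construction can only add sites. With 1 cow left out, the share of sites without overlap over all gene features was not computed. The share of higher sites was 56.9% without genotype-like sites and 56.9% at differences of at least 40 points, against 52.6 and 49.4% of all sites in gene features.

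Directions turned in these cases. In 1 kb clusters SLC10A7 had -0.892, SLC13A3 6.25, SLC18B1 -10.4 and SLC9A9 -2.91 points. At differences of at least 40 points SLC2A13 had 0.602 and SLC9A9 -3.09 points. With the median over sites SLC10A7 had -7.53 and SLC35F3 -1.01 points. With the nearest gene SLC9A4 had 33.5 and SLC9A9 -19.0 points, SLC26 -1.82 and SLC66 3.27 points. Without genotype-like sites SLC10A7 had -20.8, SLC24A4 -25.7 and SLC39A8 29.9 points. Leaving out 1 cow gave -1.44 to 5.32 points in SLC10A7, -0.871 to 8.75 points in SLC18B1, -0.969 to 1.71 points in SLC9A9 and -9.39 to 0.556 points in the promoter of SLC20A2. The cause was not tested. Among subfamilies, 18 of 320 values had the opposite sign: with each site weighing the same SLC5 had -19.1, SLC8 -0.432, SLC22 -19.2, SLC35 -2.89 and SLC38 -5.17 points, and with the nearest gene SLC24 had -7.15 and SLC35 -6.38 points beside those given. Leaving out 1 cow gave -8.86 to 0.586 points in SLC12, -2.20 to 8.15 points in SLC24 and -3.32 to 4.68 points in SLC5. Of the other values of single genes, 677 kept direction and side of the threshold, 34 passed the threshold only under the alternative and 10 passed it only as reported. The unknown read depth limits every value.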
